A study of Mus musculus with 12 samples.

Results

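Of 1004 mouse genes annotated as small nuclear RNA (snRNA) genes by RefSeq on GRCm38.p6 (mm10), 32 had a summit of the acetyltransferase MOF within 500 bp in wild-type blood progenitors, 3.19% (95% Wilson interval 2.27 to 4.46). The members were chosen by the presence of such a summit in wild-type megakaryocyte-erythroid progenitors (MEP), in wild-type haematopoietic stem cells (HSC) or in both, so their number and their −log10 values are descriptions and carry no test. A summit lay near 27 of the 32 genes in MEP and near 24 in HSC. These were 2.69% and 2.39% of all snRNA genes. Of all RefSeq genes, 1.24% in MEP and 2.95% in HSC had a summit within 500 bp of either end. Of the members, 19 were in both lists, 8 in MEP alone and 5 in HSC alone, so the shared genes made up 70.4% of the MEP members and 79.2% of the HSC members.

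The study mapped MOF, the product of Kat8, by chromatin immunoprecipitation and sequencing in cells sorted from bone marrow of C57BL/6 mice. The 5 peak lists used were MOF in Mof -/+ MEP, MOF in Mof -/+ HSC, MOF in wild-type MEP, MOF in wild-type HSC, and the erythroid factor GATA1 in wild-type HPC7, a cultured haematopoietic progenitor line kept in stem cell factor. MEP libraries came from 30000 cells gated as lineage-negative, Sca-1-negative, cKit+, CD34-, IL7r- and CD16/32-, and HSC libraries from 15000 LSK cells that were CD34- and Flt3-. Each list came from 1 library, so nothing below has a replicate check. The sources used here give no read depth, no age or number of animals and no account of the Mof allele beyond its name, and a peak list holds no expression with which to check the cell type labels. The lists held 64 peaks in Mof -/+ MEP, 338 in Mof -/+ HSC, 898 in wild-type MEP, 1876 in wild-type HSC and 477 for GATA1.

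Small nuclear RNAs are the RNA cores of the spliceosome and of related particles. U1 pairs with the start of an intron and U2 with its branch point, U4, U5 and U6 join them to form the spliceosome, and U11 and U12 take the places of U1 and U2 at a minor class of introns. U7 guides the cleavage of histone pre-mRNA, 7SK holds the elongation kinase P-TEFb in an inactive particle, and U3, which is listed with this biotype but acts in the nucleolus, is needed to process ribosomal RNA. Most of these genes are short, exist in several copies and are read by RNA polymerase II from a proximal sequence element (PSE), bound by the SNAPc complex, and a distal element with an octamer for OCT1. U6 and 7SK have a TATA box as well and are read by RNA polymerase III.

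No snRNA gene has an entry of its own in the RefSeq promoter sequences used here (0 of 1004), and the strand of these genes is not in the gene table. For 5 members, however, a promoter window of a neighbouring gene, from 250 bases before to 50 after its start, lay within 500 bp, and a MOF summit fell inside the window in 2 cases. These windows are the only sequence beside members that could be read, and both with a summit inside are shown. The window of Grcc10 (chr6:124741020-124741319, minus strand) holds the whole Rnu7 gene, 62 bases, as its bases 34 to 95, printed in capitals. The stretch ACAGCTCTTT near the start of the capitals is the part of U7 known to pair with histone pre-mRNA. The wild-type HSC summit, at 124741175, is base 145 of this window, 50 bp past Rnu7 on the side of Grcc10.
Rnu7 in the Grcc10 window: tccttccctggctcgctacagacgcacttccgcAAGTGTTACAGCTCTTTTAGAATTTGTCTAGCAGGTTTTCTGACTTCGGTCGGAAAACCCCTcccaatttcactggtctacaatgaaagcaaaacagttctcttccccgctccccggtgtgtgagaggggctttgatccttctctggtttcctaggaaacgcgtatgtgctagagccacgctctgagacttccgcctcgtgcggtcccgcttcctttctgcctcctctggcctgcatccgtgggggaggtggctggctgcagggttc

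The window of the non-coding gene C920006O11Rik (chr9:78175664-78175963, plus strand) begins 31 bp from the higher-coordinate end of Rn7sk, the 7SK gene. It holds a PSE-like pattern, spelled as ACC, any 5 bases, T, any 2 bases and AA. The pattern reads towards Rn7sk, and its nearer edge lies 52 bp from that gene. In the printed strand the pattern appears as its reverse complement, in capitals. The wild-type MEP summit at 78175683 is base 20 of the window, and the pattern begins at base 22.
Rn7sk side of the C920006O11Rik window: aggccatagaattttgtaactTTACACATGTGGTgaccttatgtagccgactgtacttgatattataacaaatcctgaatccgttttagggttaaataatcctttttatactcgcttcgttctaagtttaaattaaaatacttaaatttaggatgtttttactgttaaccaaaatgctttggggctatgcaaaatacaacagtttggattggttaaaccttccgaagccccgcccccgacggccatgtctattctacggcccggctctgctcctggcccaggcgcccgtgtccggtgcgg

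The window of Med16 (chr10:79908889-79909188, minus strand), a Mediator subunit gene, begins 7 bp from Gm24019, a predicted snRNA gene of 107 bases. Capitals mark, from left to right, TATAA reading towards Gm24019 at 27 bp, the PSE-like pattern reading towards it at 53 bp (both as reverse complements), and the octamer ATGCAAAT at 223 bp. Further TATAA matches read towards Gm24019 at 117 and 219 bp and are not marked as such. The wild-type HSC summit of this member lies 427 bp from the gene, outside the window.
Gm24019 side of the Med16 window: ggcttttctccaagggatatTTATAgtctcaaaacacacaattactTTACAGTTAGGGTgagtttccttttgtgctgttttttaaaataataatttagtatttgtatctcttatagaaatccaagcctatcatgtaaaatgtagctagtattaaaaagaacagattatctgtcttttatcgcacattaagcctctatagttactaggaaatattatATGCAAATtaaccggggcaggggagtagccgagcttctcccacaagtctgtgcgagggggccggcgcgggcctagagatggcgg

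The octamer was also in the windows of Alyref2 and D230017M19Rik, at 216 bp from LOC115487699 (116 bases) and at 222 bp from Gm24497 (191 bases). Beside all 3 genes the octamer therefore lay between 216 and 223 bp from the snRNA gene. Its letters read towards the gene beside Gm24497 alone, and away from it beside LOC115487699 and Gm24019. The 40 bases around it are shown for LOC115487699 and Gm24497, on the plus strand (chr1:171503363-171503402 and chr1:72243968-72244007), with the octamer in capitals.
LOC115487699 side of the Alyref2 window: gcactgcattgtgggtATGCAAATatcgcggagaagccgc
Gm24497 side of the D230017M19Rik window: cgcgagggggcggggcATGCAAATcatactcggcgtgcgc

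Searched on both strands, the octamer was in 3 of the 5 windows beside members, in 0 of 6 windows beside other snRNA genes and in 1.74% of all 32851 promoter windows. The PSE-like pattern, at any position and on either strand, was in 3 of 5, 0 of 6 and 10.1%. In the D230017M19Rik window that match read away from Gm24497. TATAA was in 3 of 5, 1 of 6 and 24.9%, and overlapped the octamer beside Gm24019. The core CCCANNATG of the SPH element, bound by ZNF143, was in 1 of 5 (beside LOC115487699, at 206 bp), 0 of 6 and 5.01%. A match of letters is no evidence that a factor binds there, and 5 windows are too few to compare with the rest.

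**Figure D1:**
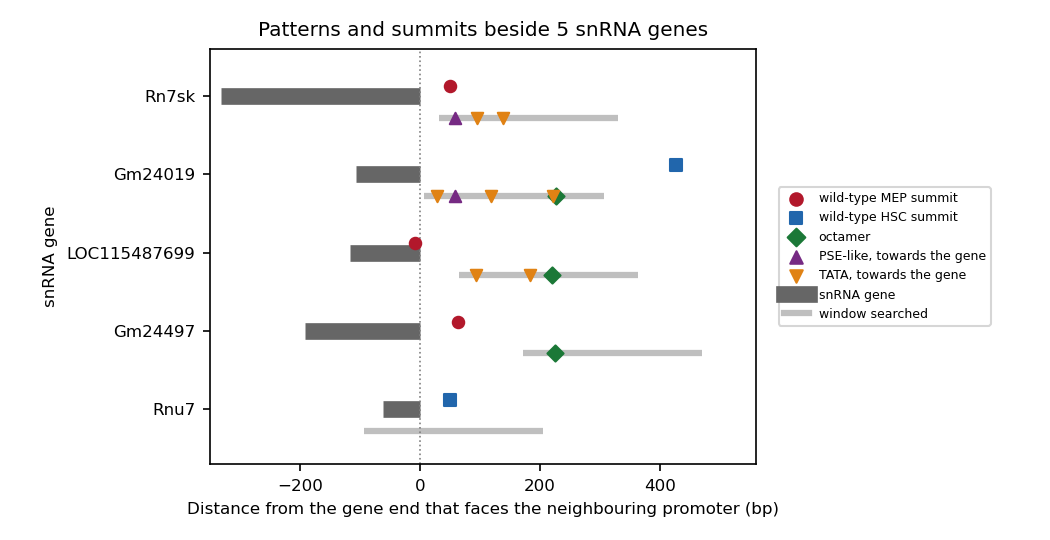
Distance in bp of pattern matches and MOF summits from the end of 5 snRNA genes that faces a neighbouring promoter window; dark bars are the genes and light bars the windows searched. Patterns are drawn at their middle. By their nearer edge, the octamers lie between 216 and 223 bp from 3 of the genes. The PSE-like patterns that read towards a gene lie 52 bp from Rn7sk and 53 bp from Gm24019, also by their nearer edge.

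Among the named U families, U3 was represented by every annotated gene. All 5 U3 genes, Rnu3a and Rnu3b1 to Rnu3b4, had a summit in both wild-type lists. Rnu3b3 (chromosome 11, 87448627 to 87448841) had a −log10 value of 16.9 in wild-type MEP, rank 110 of 898, and of 7.08 in wild-type HSC, rank 523 of 1876, where a further summit of 5.88 lay on its other side. Rnu3b4 had values of 13.8 in MEP and 9.49 in HSC. Rnu3b2 had 6.96 in MEP and 5.56 in HSC, and Rnu3b1, the lowest of the U3 genes in MEP, had 6.17 in MEP and 7.49 in HSC. Rnu3a (chromosome 10, 40258468 to 40258679) lies apart from the others, near Gtf3c6, and had the U3 summits farthest from the gene, 350 bp away in MEP (8.37) and 295 bp away in HSC (3.90).

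U1 had 1 member among its 4 named genes. Rnu1a1 (chromosome 11, 87422867 to 87423030) had a summit inside the gene in both lists, at 87422955 in MEP (21.1, rank 96) and 87422949 in HSC (10.7, rank 163). The other named U1 genes, Rnu1b1, Rnu1b2 and Rnu1b6, lie in a stretch of 160 kb on chromosome 3 with 8 snRNA genes. Only Gm22614 (165 bases) had a summit there, in MEP, 202 bp from the gene and low in the list (3.41, rank 763). The nearest summit to Rnu1b6 was 28906 bp away in MEP and 97758 bp away in HSC.

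The single named U2 gene, Rnu2-10 (chromosome 11, 101658238 to 101658424), held the highest value of any member in MEP. Its summits lay 24 bp from the gene in MEP (23.7, rank 89 of 898) and 55 bp in HSC (4.71, rank 1099 of 1876). In MEP it was in the top 10% of the list and in HSC below the median.

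U11 and U12, of the minor spliceosome, were both represented. Rnu11 (chromosome 4, 132270079 to 132270186), the U11 gene, had values of 12.7 in MEP (rank 140) and 14.3 in HSC (rank 66), with the MEP summit inside the gene and the HSC summit 58 bp beyond it. Rnu12 (chromosome 15, 83149645 to 83149794), the U12 gene, had a summit in HSC alone, 20 bp from the gene (7.44, rank 475). The nearer edge of Poldip3, its start or its end, lies 267 bp from Rnu12.

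U7 and 7SK were each called in 1 cell type. Rnu7 (chromosome 6, 124741225 to 124741286) had the lowest HSC value of all members (3.23, rank 1535), and no MEP summit. Rn7sk (chromosome 9, 78175302 to 78175633) had a summit in MEP alone (10.5, rank 173). The named genes of U5 (Rnu5g) and U6 (Rnu6) were not members. The nearest summit to Rnu5g was 5095 bp away in MEP and 5105 bp away in HSC, and the nearest to Rnu6 was 49539 bp away in MEP and 424108 bp away in HSC.

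The other 21 members have predicted symbols that RefSeq ties to no U family, and they are grouped here by annotated length. They fall into 6 lengths. Of 107 bases were Gm24019, Gm23296 and Gm25064, all in HSC and 1 of them, Gm25064, also in MEP. Of 116 bases were LOC115487699, Gm25099 and Gm25313, all in MEP and 2 also in HSC. Of 141 bases were the neighbours Gm24265, in HSC alone, and Gm24407, in MEP alone, at the Sirt4 gene. Their summits, at 115489583 in HSC and 115490383 in MEP, each lay beyond 500 bp but within 1000 bp of the other gene. The opposite calls of this pair therefore depend on the window, and at 1000 bp both genes have a summit in both lists. Of 164 and 165 bases were 7 genes, all in MEP and 6 also in HSC, and of 191 bases 6 genes, all in MEP and 2 also in HSC. Named genes of the same or nearly the same length are Rnu6 (107), Rnu5g (116), Rnu1a1 (164) and Rnu2-10 (187), a match of length and not of sequence.

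Lengths were then classed by runs of annotated length with no step of over 3 bases. The class of 102 to 112 bases, which holds 719 of the 1004 genes and with them Rnu6 and Rnu11, had a summit at 0.278% in MEP (95% Wilson interval 0.0763 to 1.01) and at 0.556% in HSC (0.217 to 1.42). The class of 157 to 172 bases, with 123 genes and the named U1 genes, stood at 6.50% in MEP (3.33 to 12.3) and 5.69% in HSC (2.78 to 11.3). The next class was higher in MEP, with intervals that overlap. For 36 genes of 183 to 199 bases, Rnu2-10 among them, the share was 19.4% in MEP (9.75 to 35.0) and 8.33% in HSC (2.87 to 21.8), and all 5 genes of 212 to 218 bases are the U3 genes. For 28 genes of 116 to 130 bases it was 10.7% in MEP and 7.14% in HSC, and all of these members have exactly 116 bases, as 9 genes do. The intervals cover counting error only, and copies of a family are not independent.

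**Figure D2:**
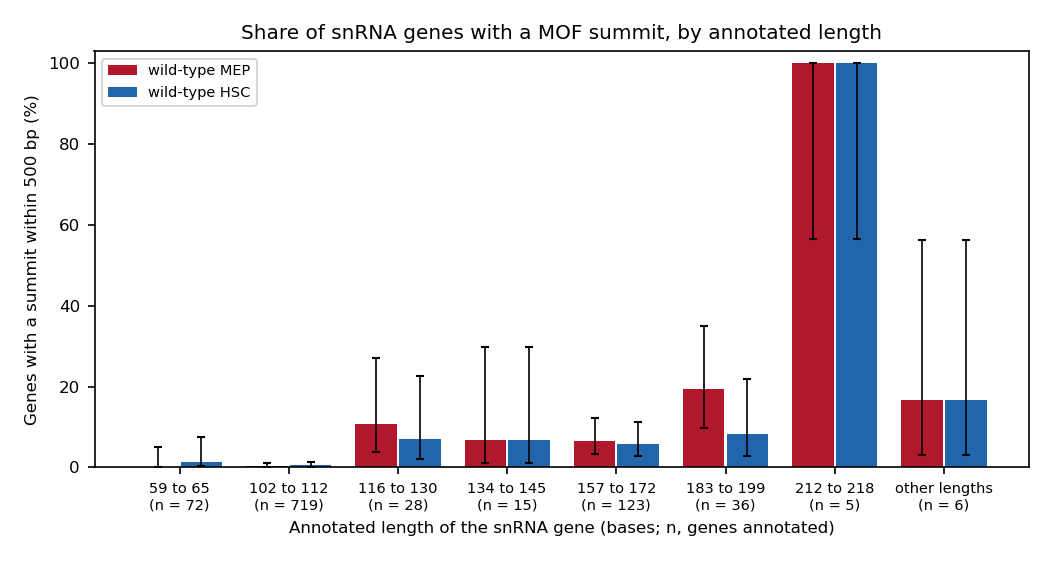
Percent of annotated snRNA genes with a wild-type MOF summit within 500 bp, by annotated length in bases, for MEP (left bar) and HSC (right bar); lines are 95% Wilson intervals and n is the number of genes. The 719 genes of 102 to 112 bases are at 0.278% in MEP and 0.556% in HSC, and all 5 genes of 212 to 218 bases, the U3 genes, have a summit in both.

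Of the 1004 snRNA genes, 2.69% had a summit within 500 bp in wild-type MEP and 2.39% in wild-type HSC. As a background, a summit lay within 500 bp of either end of 1.24% of all 49997 RefSeq genes in wild-type MEP and of 2.95% in wild-type HSC. By biotype the shares in MEP were 0.373% for small nucleolar RNA genes, 8.60% for transfer RNA genes, 0.326% for microRNA genes and 2.10% for protein-coding genes. In HSC they were 0.522%, 8.14%, 0.896% and 5.55% in the same order. The snRNA share in HSC was thus near that of all genes, which is not a result about these genes.

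Of the 32 members, 16 lay at 3 clusters, which hold 19 of the 1004 snRNA genes. Of these 16, 14 had a summit in both lists, against 5 of the 16 members elsewhere. The 1 member of the Rnu1b stretch is counted as elsewhere. The clusters were drawn with the data in view, so this split is a description. Counted with each cluster as 1 locus, the Rnu1b stretch included, 14 loci had a summit in MEP, 13 in HSC and 9 in both. The neighbours Gm24265, in HSC alone, and Gm24407, in MEP alone, count there as 1 locus with both. The Tex14 locus on chromosome 11 is a stretch of 48.7 kb inside the gene Tex14, known for its part in the bridges between germ cells, with Rnu1a1, Gm22068 and the 4 Rnu3b genes. All 6 had summits in both lists, and the seventh snRNA gene there, Gm23137 of 107 bases, had none within 1.07 kb. Along the whole Tex14 gene, 151 kb long, MEP had 6 summits and HSC 7, and every one of them lay within 500 bp of an snRNA gene. The highest of the locus were Rnu1a1 in MEP (21.1) and Gm22068 in HSC (11.2, against 19.5 in MEP).

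The Rnu2-10 locus, 53.6 kb on the same chromosome, held 5 snRNA genes, which all had a summit in MEP and of which 3 had one in HSC. After Rnu2-10, the highest MEP value was that of Gm23971 (20.3), which also had the highest HSC value of the locus (6.38). Gm24950 had 6.30 in MEP and 6.27 in HSC. Gm26316 (2.63, the lowest of all members in MEP) and LOC115487916 (6.12, inside Rdm1) were called in MEP alone. Every summit within 5 kb of this locus lay within 500 bp of an snRNA gene.

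The third cluster, 41.8 kb on chromosome 12 between Eapp and Snx6, held 7 genes of 164 bases. Of these, 5 had summits in both lists and 2, LOC115488065 and LOC115488077, in neither, with the nearest summit at least 3.7 kb away. Gm22634 was the highest in each list, with 14.5 in MEP and 15.6 in HSC, and at rank 48 of 1876 the highest member in HSC. Gm22513 had 9.42 in MEP and 9.68 in HSC, and Gm26444 had 12.7 in MEP and 6.20 in HSC. Gm22317 had 9.61 in MEP and 5.38 in HSC, and Gm25679 had 3.91 in MEP and 5.99 in HSC. A further MEP summit, of 6.61, lay on the Eapp side of Gm22513, at −1.079 kb from its start.

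**Figure D3:**
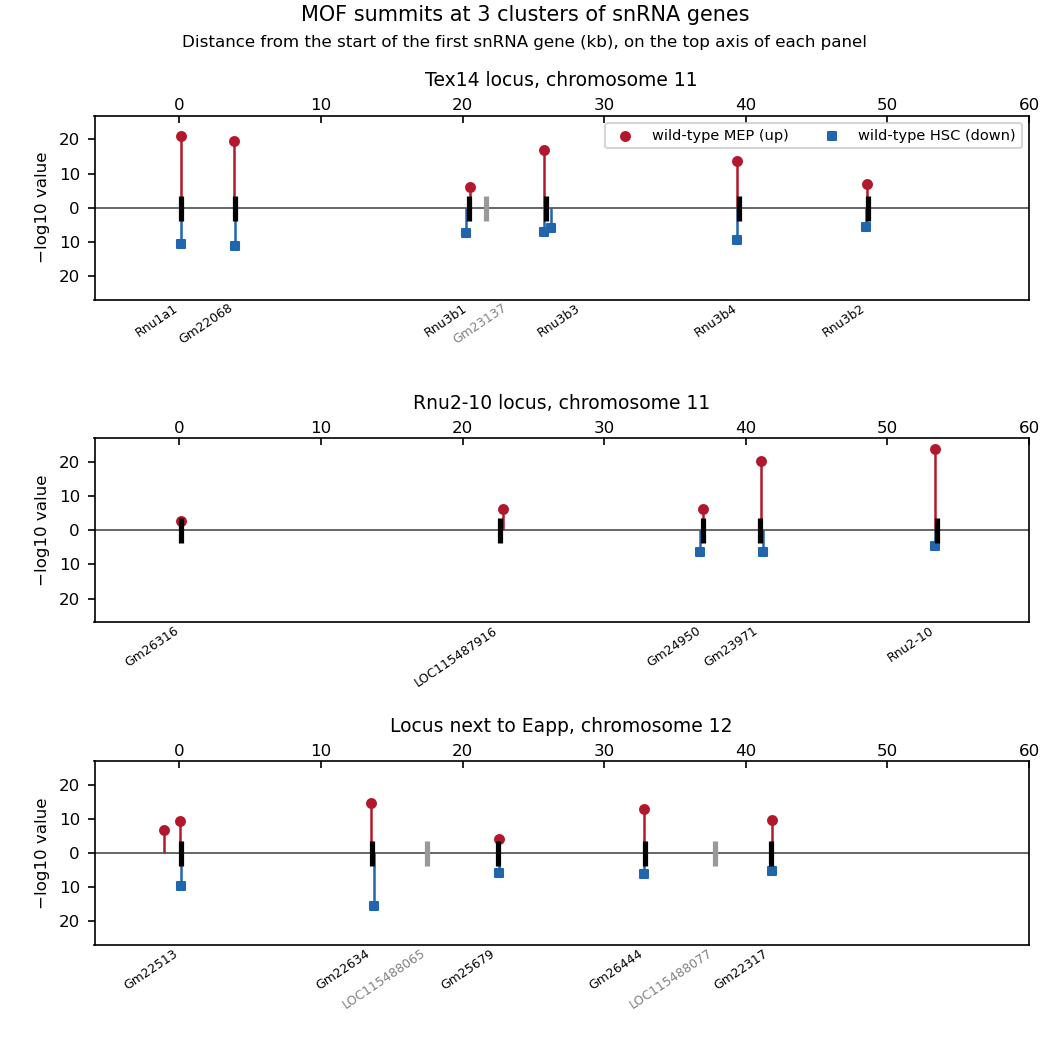
−log10 value of wild-type MOF summits (MEP upwards, HSC downwards) along 3 clusters of snRNA genes, by distance in kb from the start of the first gene; black ticks are members and grey ticks snRNA genes without a summit within 500 bp. All but the MEP summit before Gm22513 stand at a member gene.

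Copies within these clusters can share most of their sequence. How reads that match several copies were placed is not stated in these sources. Summits at neighbouring copies may therefore not be independent, and the part of this in the counts was not tested. In the chromosome 12 cluster the 2 genes without a summit lie among 5 with one. How alike these copies are in sequence was not tested.

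Summits lay close to the genes, although the rule allowed 500 bp. The median distance of the highest summit from the gene was 14 bp in MEP and 41.5 bp in HSC. It was inside the gene for 13 of 27 members in MEP and for 5 of 24 in HSC, and within 100 bp for 23 of 27 in MEP and 18 of 24 in HSC. Without strand, a side of the gene cannot be called its start. Among the 19 genes in both lists the MEP and HSC summits were a median of 55 bp apart, from 6 bp at Rnu1a1 to 262 bp at Rnu3b1, and within 100 bp of each other at 13. Just inside the window were Gm24019 (427 bp, HSC) and Rnu3a (295 bp, HSC). Of the genes without a summit in either list, just outside were LOC115488100 (846 bp from an HSC summit) and Gm26243 (846 bp from a MEP and 949 bp from an HSC summit).

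**Figure D4:**
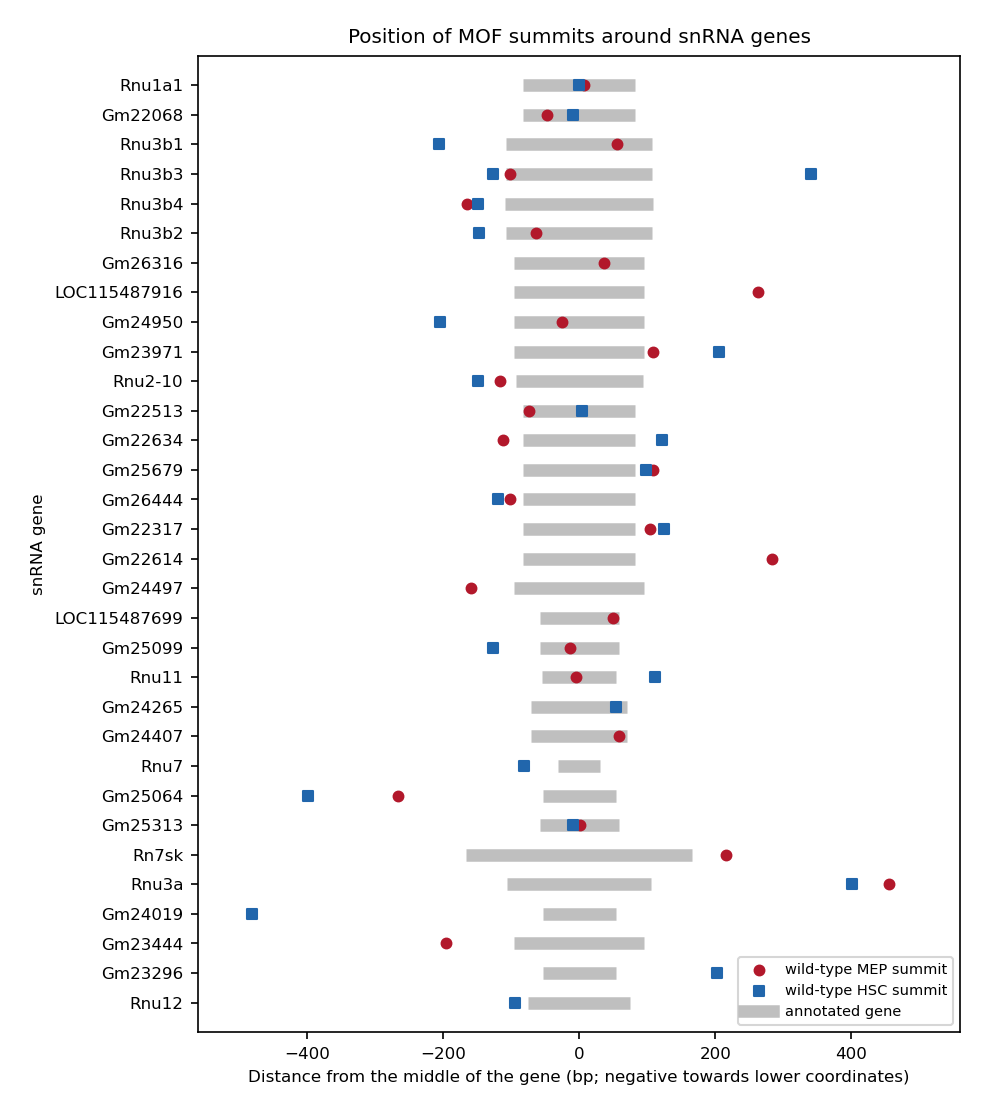
Position in bp of each wild-type MOF summit relative to the middle of its snRNA gene, for MEP (circles) and HSC (squares); grey bars are the annotated genes. In MEP 13 of 27 highest summits lie inside the gene, and in HSC 5 of 24.

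To set MEP beside HSC, each summit was given its percentile within its own list, the percent of summits with a lower value. The distinct summits at members numbered 27 in MEP, 3.01% of that list, and 25 in HSC, 1.33%. Their median percentile was 79.1 in MEP (range 7.02 to 90.1) and 63.6 in HSC (18.2 to 97.4), and 23 of 27 in MEP and 20 of 25 in HSC were at or above the median of their list. In the top 10% were 1 of 27 in MEP and 4 of 25 in HSC. The median −log10 value was 9.61 in MEP and 6.38 in HSC, against list medians of 5.61 and 5.27. The lists differ in length, so a difference in percentile shows no change in MOF binding.

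Among the 19 shared genes the percentile was higher in MEP at 10 and lower in MEP at 9. The difference, MEP minus HSC, had a median of 3.39 points and ranged from −36.8 at Gm25679 to 48.8 at Rnu2-10. Rnu2-10 stood at 90.1 in MEP and 41.3 in HSC, Gm25313 (116 bases, chromosome 9) at 81.8 in MEP and 34.1 in HSC, and Rnu3a at 74.7 in MEP and 27.7 in HSC. Gm22317 stood at 79.1 in MEP and 52.1 in HSC. In the other direction, Gm25679 stood at 22.8 in MEP and 59.6 in HSC, Rnu3b1 at 57.3 in MEP and 75 in HSC, and Rnu11 at 84.4 in MEP and 96.5 in HSC. Rnu1a1 and Rnu3b4 differed by under 3 points, at 89.3 and 85.5 in MEP and 91.3 and 86.8 in HSC. Differences of both signs stood within each of the 3 clusters and within U3: members of the chromosome 12 cluster differed by −36.8 to 26.9 points, and Rnu3b genes by −17.7 to 15.6.

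**Figure D5:**
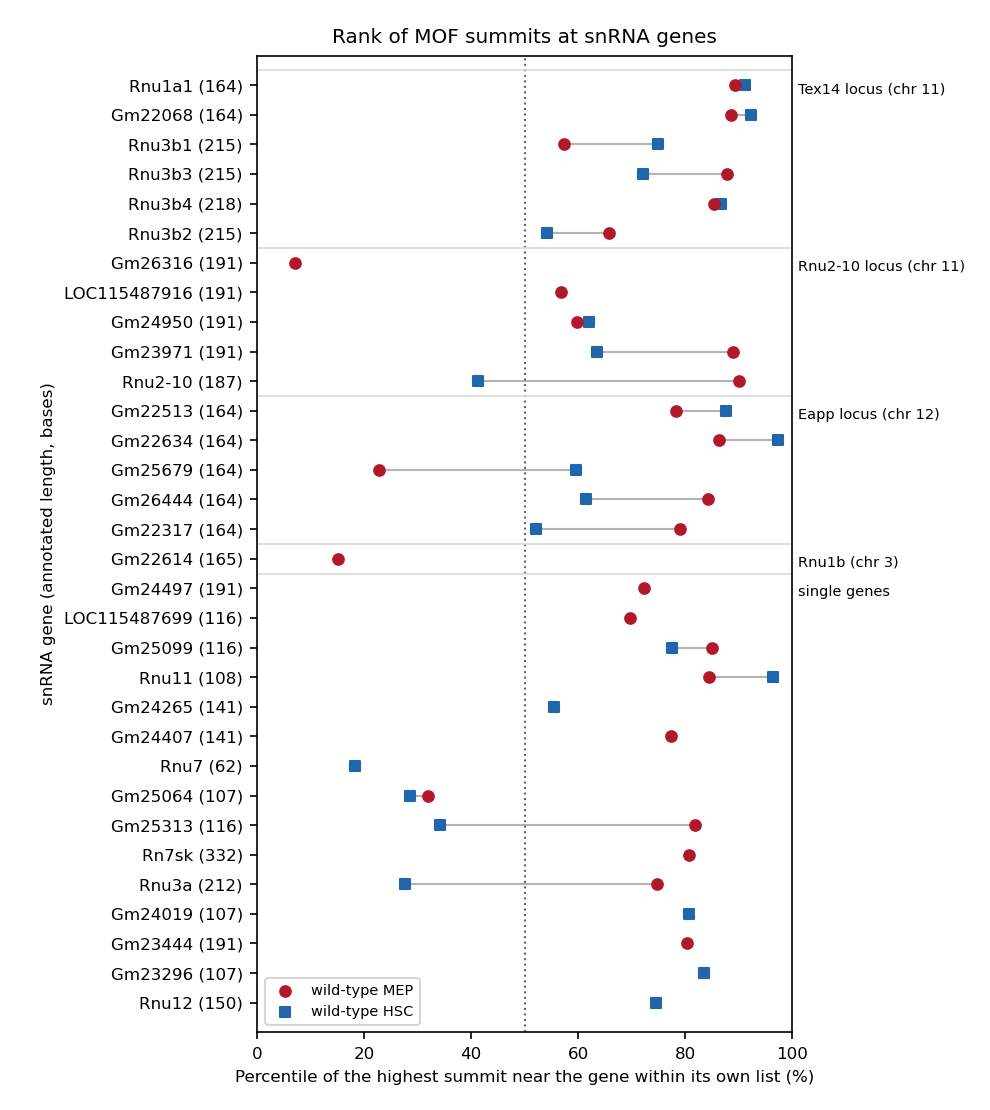
Percentile within its own list of the highest summit near each member, for wild-type MEP (circles) and wild-type HSC (squares), with annotated length in brackets; grey lines join the lists and the dotted line is the list median. Of the 19 genes in both lists, 10 stand higher in MEP and 9 lower.

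Genes called in 1 cell type alone were not confined to weak summits. The 8 genes in MEP alone had a median percentile of 71.1 (7.02 to 80.7), and among them Rn7sk stood at 80.7 and Gm23444 (191 bases, near Slfn14) at 80.3. The 5 in HSC alone had a median of 74.5 (18.2 to 83.6), with Gm23296 at 83.6 and Gm24019 at 80.7. The genes in both lists had medians of 84.3 in MEP and 63.6 in HSC. Every gene in MEP alone stood below the former, and the median in HSC alone stood above the latter. A gene not in a list may still hold MOF below the threshold of the caller. The calls of the neighbours Gm24407, in MEP alone, and Gm24265, in HSC alone, also depend on the window of 500 bp. A summit of the other wild-type list lay within 500 bp of 19 of 27 member summits of MEP (70.4%), against 32.4% of all MEP summits and 29.9% of the 713 summits with values in the members' range. For HSC it was 20 of 25 (80%), against 15.9% of all and 14.2% of the 1449 summits in the members' range. Since the rule used both lists, these shares are a description.

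The 3 lists that the rule did not use held no peak at any member. Within 500 bp of the 32 genes lay 0 intervals of Mof -/+ MEP, 0 of Mof -/+ HSC and 0 of GATA1 in HPC7, each of which allows a share of up to 9.38%. None of the 1004 snRNA genes had one (up to 0.299%). Among all RefSeq genes the shares were 0.016% in Mof -/+ MEP, 0.25% in Mof -/+ HSC and 0.094% for GATA1, so that 0 of 32 was near the background. The nearest interval was 2125 kb from a member in Mof -/+ MEP and 116 kb in Mof -/+ HSC (from Rnu3a). For GATA1 it was 79.7 kb, from Rnu7.

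Counted by summit, 0 of 27 MEP summits at members had a Mof -/+ MEP interval within 500 bp, which allows up to 11.1%, against 3.01% of all wild-type MEP summits and 1.26% of those with like values. In HSC 0 of 25 had a Mof -/+ HSC interval, which allows up to 12%, against 5.06% of all and 3.93% of like summits. A GATA1 interval lay near 0 of 27 in MEP and 0 of 25 in HSC, against 12.6% and 2.35% of all summits and 4.49% and 1.04% of like summits. The share of like summits lies below the limit that a count of 0 allows in every case. The share of all summits does so too, apart from the 12.6% for GATA1 in MEP. These limits take summits as independent, which those at copies within a cluster may not be. At these numbers the members therefore cannot be told apart from the summits with like values in their lists. The short Mof -/+ lists, 64 and 338 peaks, are themselves a limit: whether snRNA genes carry less MOF in Mof -/+ cells was not tested.

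Most members had no protein-coding gene end nearby. Within 1 kb of one lay 9 of 32 (28.1%), against 33 of all 1004 snRNA genes (3.29%). These were LOC115487699 at Alyref2, Rnu3a at Gtf3c6, Gm24019 at Med16, LOC115487916 at Rdm1, Gm22513 at Eapp, Rnu12 at Poldip3, Gm24265 and Gm24407 at Sirt4 and Rnu7 at Grcc10. For these 9 a summit may belong to either gene. The other 23, among them Rnu11, Rnu2-10 and Rn7sk, lay farther than 1 kb from one. A non-coding gene or pseudogene lay within 1 kb of 8 of the 23, Rn7sk among them, and there too a summit may belong to either. The 6 members inside Tex14 lay between 17.9 and 66.4 kb from its nearer edge.

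The proteins that make and carry snRNAs were looked up in lists of 78 coding genes. A summit lay inside or within 500 bp of 11 of them in MEP and of 22 in HSC, where 3.11% of all protein-coding genes had one in MEP and 7.51% in HSC. For transcription these were Pou2f1, which encodes OCT1 (4.51), Bdp1, a subunit of the RNA polymerase III factor TFIIIB (2.86), the elongation factor gene Ell (7.62) and Gtf2a1 (4.33) in MEP, and Zc3h8 of the little elongation complex (4.28), Gtf2b, the gene of TFIIB (7.73), and Gtf2a1 (6.92) in HSC, out of 16. The Bdp1 summit lay 41285 bp from the nearer end of the gene. Those of Gtf2a1 lay 2219 bp from it in MEP and 2035 bp in HSC. No SNAPc subunit gene had a summit. Of 15 genes of Integrator, which cuts the ends of snRNA precursors, Ints7 (11.6) and Ints4 (2.62) had one in MEP and Ints6 (11.3), Ints7 (6.51) and Ints5 (1.89) in HSC.

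Of 21 Sm, Lsm and U snRNP protein genes, 1 had a summit in MEP, Snrpd2 (6.29), and 7 in HSC. The HSC summits were at Snrpe (10.7), Lsm2 (8.40), Snrpd1 (7.61), Lsm3 (6.14), Lsm11, a U7 protein (3.61), Snrpc of the U1 particle (3.06) and Lsm8 (1.89). Of 8 minor spliceosome genes, Snrnp35 had summits in both (5.29 in MEP, 7.80 in HSC) and Rnpc3 in HSC (5.73). Of 7 genes of the 7SK particle and P-TEFb, Mepce, which caps 7SK (7.08 in MEP, 7.20 in HSC), and Ccnt1, the cyclin of P-TEFb (5.63 in MEP, 5.23 in HSC), had summits in both, and Larp7, which binds the 3′ end of 7SK (9.07), Hexim2 (6.36) and Hexim1 (4.36) in HSC alone. The Hexim2 summit lay 6983 bp from the nearer end of the gene. Of 11 genes of export and assembly, Gemin6 had summits in both (3.32 in MEP, 8.02 in HSC) and Gemin4 in HSC (1.90). None of these genes had an interval in the Mof -/+ MEP, Mof -/+ HSC or GATA1 list.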

How the data were processed

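Chromatin immunoprecipitation libraries were processed with Bowtie2 2.3.0.1, deepTools and MACS2 on mm10, per the submitters' processing notes. Caller settings and the treatment of reads that match several places are not stated there. The deposited wild-type lists give 1 bp summits with a −log10 value that no header explains, with minima of 1.31 and 1.35, as a −log10 q at 0.05 would give (1.30). The deposited heterozygous lists give intervals with a score, −log10 p, −log10 q and fold over background, as the authors' caller wrote them. The deposited GATA1 list gives intervals alone. All such values are the authors' and describe peaks within a list.

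Genes, biotypes and neighbouring promoter sequences came from RefSeq on GRCm38.p6. Distances run from a gene's span to a summit or interval, with 500 bp as the limit. Distance code was tested on simulated data. Python 3.11.15, pandas 2.3.3 and scipy 1.17.1 were used. Named by rule were U-family and 7SK genes and the highest predicted gene of a locus, and other predicted genes were named after their values were seen. The members and lists were chosen with earlier results of these data known. With 1 library per group no test was made. The other 7 of 12 samples were not analysed here. A planned measure from the transcribed start was not run, since the gene table holds no strand for snRNA genes.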

Additional observations from a re-analysis of the deposited data

How the results depend on the processing

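A window of 150 or 1000 bp, only summits above the median of their list, and genes chained within 10 kb counted once kept the counts of snRNA genes with a summit, and of those with summits in both lists, within 1.5 times their values. With each of the 4 named clusters (Tex14, Rnu2-10, the one between Eapp and Snx6, and Rnu1b) counted once, a choice made after seeing the data, the counts were 14 in MEP, 13 in HSC and 9 in both, against 27, 24 and 19. In these counts the neighbours Gm24265 and Gm24407 were 1 locus with both. A window of 5000 bp gave 42 genes in HSC, against 24. With named genes only, the counts were 9 in MEP, 10 in HSC and 8 in both. The median percentile was 74.7 in HSC with only the highest summit of each 10 kb chain, and 81.7 in MEP without scaffolds and the mitochondrial genome; without the Tex14 locus it was 78.3 in MEP and 61.7 in HSC. Members with a Mof -/+ or GATA1 interval remained 0 with windows of 150, 1000 and 5000 bp. No paired analysis was possible because each group has 1 library and no result comes from a test, and no library could be left out. Read depth is unknown, so an absent summit does not show absent MOF.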

Other observations

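Other small RNA genes with promoters outside the transcribed part, or partly so, were looked up beside the snRNA genes. Rpph1, the RNA of RNase P, and Rmrp, the RNA of RNase MRP, had summits in wild-type HSC alone, 14 bp and 2 bp from an end of the gene (11.4, rank 131, and 6.50, rank 660, of 1876). The Y RNA genes Rny1 and Rny3 and the vault RNA gene Vaultrc5 had none in any list. Of the genes of 7SL, the RNA of the signal recognition particle, Rn7s2 had a summit in wild-type MEP (7.71, rank 251 of 898), and Rn7s1 had weak summits in wild-type MEP (1.77, rank 888) and wild-type HSC (1.89, rank 1808).

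Rn7s1 was also the single gene of all 85 looked up with an interval in a Mof -/+ list. The interval, from 69158786 to 69159098 on chromosome 12, lay 197 bp from the gene in Mof -/+ HSC, with a −log10 q of 3.84, rank 273 of 338, and 5.45-fold enrichment in the authors' deposited list. Transfer RNA genes had a Mof -/+ HSC interval within 500 bp at 25 of 430 (5.81%, 95% Wilson interval 3.97 to 8.44), against 8.14% in wild-type HSC. For snRNA genes the shares were 0 of 1004 in Mof -/+ HSC, which allows up to 0.299%, and 2.39% in wild-type HSC. Among all RefSeq genes the Mof -/+ HSC share was 0.25%. In MEP the transfer RNA shares were 0 of 430 in Mof -/+ cells, which allows up to 0.698%, and 8.60% in wild-type cells. The difference between the biotypes was not tested, and transfer RNA genes lie in clusters where 1 interval can count for several.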
